A study of Mus musculus with 16 samples.

Results

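The libraries labelled as lacking PHD2 were set directly against the libraries labelled as lacking PHD2 and HIF2α together, gene by gene across the autosomes. The members were the 4 libraries whose names start with P2KO and the 4 whose names start with P2H2KO, 8 of the 16 libraries of the series. After a filter on low counts, 13589 autosomal genes of 45108 in the count tables were tested. All libraries were RNA sequencing libraries of total RNA from neutrophils that had been sorted by flow cytometry out of the bones of C57BL/6 mice aged 8 to 12 weeks. P2KO carries Vav:cre-PHD2f/f and P2H2KO carries Vav:cre-PHD2/HIF2ff/ff, and each line has its own wild type group of 4 libraries, P2WT and P2H2WT. Every P2KO library therefore belongs to the P2 line and every P2H2KO library to the P2H2 line, so line and deletion cannot be told apart in the direct comparison. The difference between P2WT and P2H2WT, taken in the same way, marks what differs between the lines without the deletions. The 2 differences share no library, but they were taken from the same fit, which estimates the spread of each gene from all 16 libraries together. Title numbers 1 to 10 all belong to the P2 line and 11 to 18 all to the P2H2 line, so any difference in handling between the lines falls in the same place. Whether each library came from 1 mouse is not given in the labels, so p-values measure the spread between these libraries.

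PHD2, encoded by Egln1, is an oxygen sensor that hydroxylates the α subunits of the hypoxia-inducible factors and so marks them for degradation. HIF1α and HIF2α, the latter encoded by Epas1, pair with ARNT and switch on genes for glycolysis, mitochondrial turnover, vessel growth and iron and erythropoietin handling. The Vav promoter drives Cre recombinase throughout blood-forming cells, so the alleles are removed in other blood lineages as well as in neutrophils. Vessels and bone-forming cells lie beside neutrophils in the marrow, and their main transcripts encode collagens, basement membrane proteins and endothelial adhesion proteins.

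Library totals ran from 23450746 to 28601284 counts. Any pair of libraries of a group had a Pearson coefficient of 0.977 to 0.993 over genes. None of these pairs matched within sampling noise, the lowest chi-square being 10.6 per degree of freedom. Levels are given in CPM, the normalised read count relative to library size. The first principal component of all 16 libraries held 28.5% of the variance and placed all P2 libraries, deficient and wild type, at -45.0 to -1.81 and all P2H2 libraries at 2.83 to 35.6. Title suffixes m and f were not balanced, with 3 m and 1 f in P2KO and in P2H2WT and 2 of each in P2H2KO and in P2WT. The imbalance runs opposite ways in the deficient and wild type differences, so the wild type difference does not mark it. Sex-linked chromosomes were left out of the counts below.

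The targeted genes were examined first. Epas1 (chr17:86753700-86833410, GRCm38) stood at 7.58, 10.4, 6.76 and 24.4 CPM in the 4 P2KO libraries and at 3.42, 4.51, 6.29 and 8.39 CPM in the 4 P2H2KO libraries. The groups overlapped, and P2KO library 9 was the high one. The log2 difference of 1.12 ± 0.37 (SE) had an adjusted p of 0.183 in edgeR's quasi-likelihood test, and an exact two-sided permutation test of log2(CPM + 1) gave p = 0.114, where 70 splits allow no p below 0.0286. Without P2KO library 9 the log2 difference was 0.53 (adjusted p = 0.516), and with scores of endothelial and bone stroma markers as covariates it was -0.43 (adjusted p = 0.910). In the wild type libraries Epas1 was at 8.70 to 11.3 CPM in P2WT and at 2.55 to 4.97 CPM in P2H2WT without overlap, a log2 difference of 1.49 ± 0.38 and an exact permutation p of 0.0286. The lower Epas1 level was thus present in the wild type libraries of the P2H2 line as well, and the P2H2KO mean of 5.65 ± 2.17 CPM (SD, n = 4) was not below the P2H2WT mean of 3.56 ± 1.02 CPM (SD, n = 4). Epas1 is a gene of vessel cells too, and the endothelial transcripts described below were also higher in the P2 line. Whether these differences are linked was not tested.

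Egln1 (chr8:124908587-124949324) stood at 47.5, 49.1, 58.4 and 43.2 CPM in P2KO and at 49.2, 50.3, 58.8 and 54.3 CPM in P2H2KO. The groups overlapped, as they did in the wild type libraries at 45.9 to 51.3 and 47.9 to 54.6 CPM, and the exact permutation p of the deficient groups was 0.343. These are counts over whole genes, which include any exons that the alleles leave in place, and which exons are removed is not given in the labels. The counts of Epas1 and Egln1 therefore do not check the genotype labels, and the groups are called by their labels throughout.

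Of the 13589 autosomal genes, 128 (0.942%) differed between P2KO and P2H2KO at an adjusted p under 0.05, termed called below. In P2KO 106 genes (0.78%) were higher and 22 (0.162%) were lower. Most of the 128 genes were low, with a mean in the higher deficient group under 5 CPM in 83 and of 5 CPM or more in 45. Between P2WT and P2H2WT 32 genes (0.235%) were called, 17 (0.125%) higher and 15 (0.11%) lower in P2WT. Of these, 26 were called in both differences, which is 20.3% of the deficient list and 81.25% of the control list, and all 26 had the same sign in both. The control count was 0 without any 1 of P2WT libraries 3, 4 and 7 and P2H2WT library 13, and DESeq2 called 411 and 283 genes, 160 of them in both, so these shares depend on the libraries and the tool. Of the 128 genes, 125 had the same sign in the wild type libraries and 114 also had an unadjusted p under 0.05 there in that direction (98 higher and 16 lower), where 10.1% of all autosomal genes had such a p, 6.96% higher and 3.11% lower in P2WT. Since the spread of a gene is estimated jointly for both differences, choosing genes by the deficient p also favours a small wild type p. The count of 114 is therefore not independent of the choice. Across the autosomal genes the 2 differences correlated with a Pearson coefficient of 0.699 and a Spearman coefficient of 0.520. Without the genes called in either difference the Pearson coefficient was 0.620. These coefficients are over genes, which are not independent replicates.

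The 106 higher genes had a median log2 difference of 1.71 in the deficient libraries and 1.29 in the wild type libraries, and the 22 lower genes had medians of -2.91 and -2.34. The latter include genes with counts near 0 in the P2 line, whose fitted sizes depend on the model and are no measure of the fold. All autosomal genes had medians of 0.01 and -0.01. Since the genes were chosen by the deficient difference, a larger median there follows in part from the choice. In 124 of the 128 genes the 4 P2KO and 4 P2H2KO libraries did not overlap, against 4.48% of all autosomal genes with P2KO above and 2.57% with P2KO below. The 128 genes were called on these same libraries, so this contrast follows in large part from the choice. In 92 of the 128 genes the wild type groups, which had no part in the choice of direction, did not overlap in the same direction, against 5.13% and 2.61% of all genes. Their spread did enter the fit that called the genes.

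**Figure D1:**
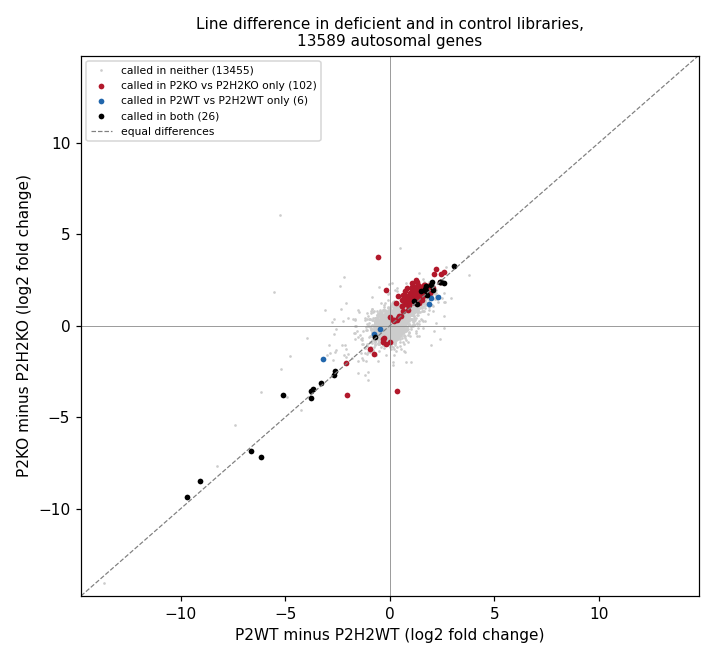
Each point is 1 of 13589 autosomal genes, with the log2 difference between P2WT and P2H2WT on the horizontal axis and that between P2KO and P2H2KO on the vertical axis. Genes called in both differences (26, black) lie near the dashed line of equal differences, and most genes called only between the deficient groups (102, red) lie on the same side of 0 on both axes.

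Whether the deficient difference departs from the control difference was tested directly, as the first minus the second. This difference of differences was called for 0 genes by edgeR, with a smallest adjusted p of 0.999, and for 0 genes by DESeq2. An unadjusted p under 0.05 was found for 209 genes (1.54%), with positive values in 0.795% and negative values in 0.743% of the genes tested. Among the 128 genes the 95% interval of the difference of differences included 0 in 116. The median of its extent to each side was 1.001 on the log2 scale, without adjustment for the number of genes. For a typical gene of the list the adjusted test needs a departure larger than that. The absence of calls therefore does not show that the differences are equal. The larger number of calls between the deficient groups does not show a larger difference there. With each contrast fitted on its own 8 libraries the order was reversed, with 38 genes called between P2KO and P2H2KO and 161 between P2WT and P2H2WT.

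The genes that were higher in P2KO were led by structural genes of connective tissue. Col1a1 and Col1a2 encode the chains of type I collagen, the main protein of bone matrix. Col1a1 (chr11:94936224-94953042) stood at 329, 168, 514 and 249 CPM in P2KO and at 15.3, 59.7, 48.6 and 25.2 CPM in P2H2KO. Every P2KO library lay above every P2H2KO library, and the log2 difference was 3.08 ± 0.56 (SE), adjusted p = 0.0218. The wild type libraries showed the same order, with 585, 180, 141 and 159 CPM in P2WT and 32.5, 40.9, 64.3 and 92.3 CPM in P2H2WT, a log2 difference of 2.21 ± 0.54 with an adjusted p of 0.102. Left without 1 deficient library at a time, Col1a1 was called in 5 of 8 fits.

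Col1a2 (chr6:4504814-4541544) followed Col1a1, at 250, 136, 398 and 220 CPM in P2KO against 19.99, 50.2, 42.5 and 31.2 CPM in P2H2KO. Its log2 difference was 2.80 ± 0.46 between the deficient groups (adjusted p = 0.0136) and 2.11 ± 0.45 between the wild type groups (adjusted p = 0.0633). Sparc, a collagen-binding glycoprotein of bone matrix, stood at 72.0, 68.5, 94.3 and 118 CPM in P2KO and at 10.1, 22.7, 23.2 and 22.6 CPM in P2H2KO, a log2 difference of 2.17 ± 0.33 (adjusted p = 0.0112). Between the wild type groups Sparc was also called, with a log2 difference of 1.75 ± 0.32 (adjusted p = 0.0421).

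Collagens of other types showed the same direction. Col5a2, a chain of type V collagen, was at 7.04 to 15.6 CPM in P2KO and at 1.64 to 2.34 CPM in P2H2KO, with log2 differences of 2.36 in the deficient and 2.03 in the wild type libraries, both called. Col11a1, a chain of the cartilage collagen XI, was at 4.11 to 9.56 CPM in P2KO and at 0.303 to 1.26 CPM in P2H2KO, with log2 differences of 2.93 and 2.62. Col4a1 and Col4a2 encode the type IV collagen chains of basement membranes and lie head to head on chromosome 8. Col4a1 was at 16.9, 25.9, 18.9 and 38.9 CPM in P2KO and at 2.86, 6.73, 8.08 and 6.77 CPM in P2H2KO, and Col4a2 at 12.3, 19.1, 13.1 and 29.0 against 2.99, 4.88, 6.61 and 5.50 CPM. Both were called between the deficient groups (log2 2.03 and 1.88, adjusted p = 0.0112 for each) and between the wild type groups (log2 1.69 and 1.47). The annotated ends of the pair overlap, so a small part of their reads may be shared.

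Of the 28 autosomal collagen genes tested, 9 were called and higher in P2KO (0.78% of all autosomal genes were), 3 were called in the wild type libraries (0.235% of all), and 26 had a positive log2 difference in each. Their median log2 difference was 1.65 in the deficient and 1.34 in the wild type libraries. Other matrix families were picked together with the collagens after the values had been seen: 2 of 6 laminins (Lamb1 and Lama4), both nidogens (Nid1 and Nid2), 2 of 4 lysyl oxidases (Lox and Loxl2), 2 of 13 MMP proteases (Mmp2 and Mmp13) and 2 of 10 ADAMTS proteases (Adamts2 and Adamts4) were called, all higher in P2KO. The medians of laminins and of lysyl oxidases were 1.07 and 1.25 between the deficient groups and 0.73 and 1.32 between the wild type groups. The ADAMTS proteases had medians of 0.83 and 0.79, and the MMP proteases, of which 7 of 13 were positive, had medians of 0.17 and 0.06.

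Hspg2 encodes perlecan, a heparan sulfate proteoglycan of basement membranes. It stood at 9.20, 11.6, 12.1 and 30.4 CPM in P2KO and at 1.73, 2.18, 5.53 and 5.14 CPM in P2H2KO, with log2 differences of 2.11 ± 0.39 (adjusted p = 0.0229) and 1.98 ± 0.40 in the wild type libraries. The proteases Mmp13, a collagenase, and Ctsk, the cathepsin by which osteoclasts digest bone collagen, were also called. Mmp13 was at 8.28 to 22.6 CPM in P2KO and 0.822 to 4.43 CPM in P2H2KO, with log2 differences of 2.21 and 1.62. Ctsk was at 14.6 to 23.9 CPM in P2KO and 3.38 to 8.26 CPM in P2H2KO with a log2 difference of 1.77 ± 0.35 (adjusted p = 0.0288), whereas its wild type groups overlapped at 5.33 to 17.02 and 3.91 to 6.97 CPM. The difference of differences of Ctsk was 0.82 ± 0.49 with an unadjusted p of 0.116.

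Gdpd3, which encodes a lysophospholipase D, had the largest log2 difference of the genes named by size. Gdpd3 (chr7:126766334-126775649) stood at 23.0, 50.7, 57.8 and 33.2 CPM in P2KO and at 3.29, 3.71, 4.71 and 5.23 CPM in P2H2KO, a log2 difference of 3.28 ± 0.51 (adjusted p = 0.0112). In P2WT it was at 29.5, 41.5, 50.1 and 4.97 CPM and in P2H2WT at 2.95 to 4.93 CPM. P2WT library 10 thus lay at the level of the P2H2 line, and the log2 difference of 3.07 ± 0.51 was called in the wild type libraries as well. The annotated exons of Gdpd3 overlap those of Gm9967, so reads of both may be mixed.

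**Figure D2:**
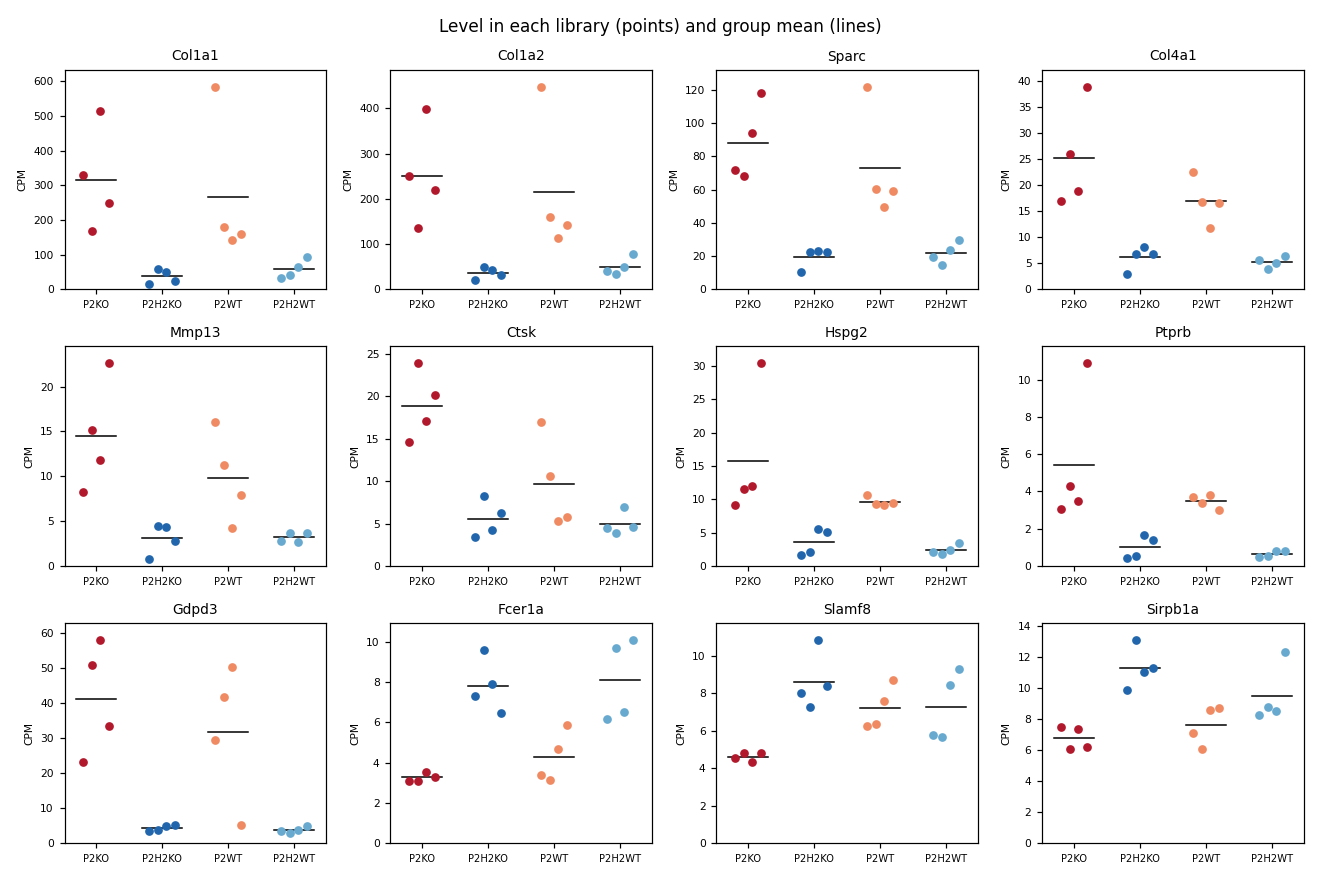
Level in CPM of 12 genes in each of the 16 libraries (points) with the mean of each group (lines), 1 panel per gene and each vertical axis starting at 0. In the 9 panels from Col1a1 to Gdpd3 the P2KO points lie above all P2H2KO points, with Col1a1 at 168 to 514 against 15.3 to 59.7 CPM. In the panels of Fcer1a, Slamf8 and Sirpb1a they lie below.

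Endothelial markers were also among the higher genes. Of the 14 endothelial markers tested, 4 were called, all higher in P2KO, where 0.78% of all autosomal genes were called and higher. They included Plvap (the diaphragm protein of fenestrated vessels) and Sox18 (a transcription factor of vessel and lymph vessel development). The others were Emcn (endomucin, a sialomucin of veins and capillaries) and Cdh5 (VE-cadherin, the adhesion protein of endothelial junctions). Cdh5 stood at 13.9, 19.3, 13.6 and 26.6 CPM in P2KO and at 8.78, 10.8, 11.3 and 8.84 CPM in P2H2KO, with log2 differences of 0.88 ± 0.19 (adjusted p = 0.0435) and 0.87 ± 0.19 in the wild type libraries. Plvap stood at 8.87, 11.1, 7.79 and 21.7 against 4.02, 3.83, 5.71 and 5.14 CPM, with log2 differences of 1.40 and 1.27. Ptprb, the vascular receptor phosphatase VE-PTP, was at 3.05, 4.28, 3.48 and 10.9 CPM in P2KO and at 0.433, 0.524, 1.69 and 1.40 CPM in P2H2KO, a log2 difference of 2.41 ± 0.44 (adjusted p = 0.0223) that was 2.39 ± 0.46 in the wild type libraries. In each of these the high P2KO value was that of library 9. Among the 106 higher genes the highest P2KO library was library 9 in 87, library 6 in 10 and library 5 in 9, and the lowest P2H2KO library was library 11 in 60. P2KO library 9 also had the highest sums of the endothelial list (282 CPM) and the megakaryocyte and platelet list (284 CPM, where the other P2KO libraries were at 77.4 to 112 CPM). The part of this in the results was not tested, and without P2KO library 9 44 genes were called, all of them among the 128.

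The marker lists put numbers on these cell types. The 18 bone stroma markers tested included 3 called genes (Col1a1, Col1a2 and Sparc), all higher in P2KO, where 0.78% of all autosomal genes were called and higher. At an unadjusted p under 0.05, 15 were higher in P2KO, where 9.49% of all autosomal genes were so. In 12 every P2KO library lay above every P2H2KO library, as in 4.48% of all autosomal genes. The median log2 difference of the 18 markers was 1.04 between the deficient and 1.10 between the wild type groups. Summed over the list, stroma transcripts made 888 to 1465 CPM in P2KO, 417 to 546 CPM in P2H2KO, 838 to 1720 CPM in P2WT and 400 to 595 CPM in P2H2WT. Of the 14 endothelial markers, 10 were higher in P2KO at an unadjusted p under 0.05, and 7 lay above P2H2KO without overlap. The 14 endothelial markers had medians of 0.98 and 1.15, and summed to 136 to 282 CPM in P2KO, 123 to 134 CPM in P2H2KO, 154 to 174 CPM in P2WT and 107 to 130 CPM in P2H2WT. Of the tested markers of both lists, Bglap was at 0 in P2H2KO library 11 and no other marker was at 0 in any of the 16 libraries. Runx2 of the stroma list and Tie1 of the endothelial list had log2 differences of -0.11 and 0.05. In RNA from sorted cells, fewer cells of a type and less RNA per cell cannot be told apart.

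With the scores of the endothelial and stroma lists as covariates, a fit added after the called genes had been seen, 0 genes were called between P2KO and P2H2KO and 0 between P2WT and P2H2WT, with 462 and 428 at an unadjusted p under 0.05. Members of both lists are among the called genes, and both scores separate the lines, so this fit also takes out part of any difference between the lines. The log2 difference of Sparc was 0.49 in it and that of Col1a1 1.60. A loss of calls was not particular to these scores. With erythroid and late granule scores as covariates instead, 4 genes were called between P2KO and P2H2KO, 3 of them among the 128. Between P2WT and P2H2WT 43 were called in that fit.

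**Figure D3:**
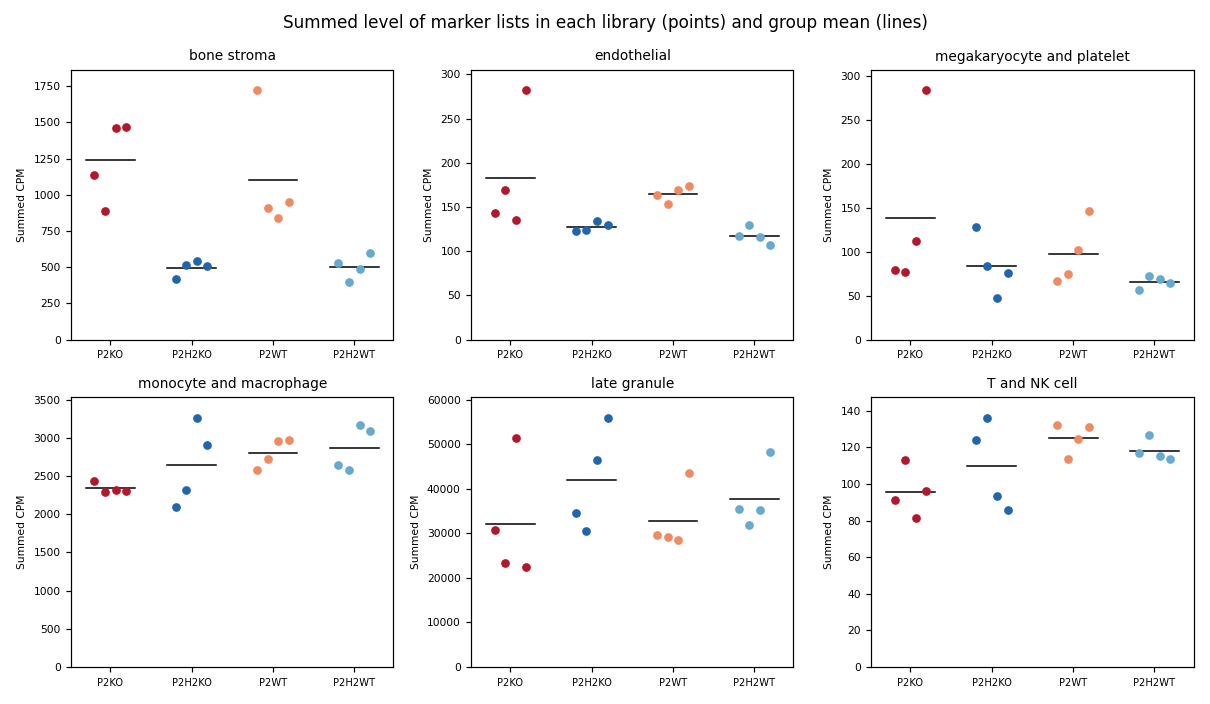
Summed CPM of 6 marker lists in each library (points) with group means (lines), with vertical axes starting at 0. Bone stroma and endothelial sums are higher in both groups of the P2 line (stroma 888 to 1465 CPM in P2KO and 417 to 546 CPM in P2H2KO), whereas late granule sums overlap between all groups.

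Among the 22 genes lower in P2KO, 12 were protein coding, 3 were antigen receptor genes and 7 were pseudogenes or non-coding RNAs. Fcer1a encodes the IgE-binding chain of the high-affinity receptor of mast cells and basophils. It stood at 3.09, 3.11, 3.56 and 3.30 CPM in P2KO and at 7.31, 9.59, 7.90 and 6.45 CPM in P2H2KO, a log2 difference of -1.26 ± 0.21 (adjusted p = 0.0139). The wild type difference was -0.93 ± 0.21, with 3.11 to 5.88 CPM in P2WT and 6.16 to 10.1 CPM in P2H2WT, again without overlap. Fcer1a was the 1 called gene of the 15 eosinophil, basophil and mast cell markers, where 0.162% of all autosomal genes were called and lower. The median log2 difference of these markers was -0.19 between the deficient and -0.29 between the wild type groups.

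Slamf8, a receptor of the SLAM family on myeloid cells, had the smallest p for the difference of differences among the lower genes named by size. It stood at 4.56, 4.80, 4.31 and 4.80 CPM in P2KO and at 8.01, 7.29, 10.8 and 8.39 CPM in P2H2KO, a log2 difference of -0.90 ± 0.17 (adjusted p = 0.0259). The wild type groups overlapped at 6.24 to 8.72 CPM in P2WT and 5.66 to 9.29 CPM in P2H2WT, with a difference of -0.01 ± 0.17. The difference of differences was -0.89 ± 0.24 with an unadjusted p of 0.00220, which did not pass the adjustment over all genes (adjusted p = 0.999). P2KO lay below all 8 wild type libraries, whereas 3 of the 4 P2H2KO libraries lay within the wild type range. Slamf8 was called in 4 of the 8 fits that left out 1 deficient library.

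Adgrg7, an adhesion G protein-coupled receptor, was at 2.30 to 3.25 CPM in P2KO and 4.43 to 5.67 CPM in P2H2KO, with log2 differences of -0.88 and -0.33. Sirpb1a and Sirpb1c, signal-regulatory proteins of myeloid cells, were lower in P2KO as well. Sirpb1a was at 6.08 to 7.47 CPM in P2KO and 9.87 to 13.1 CPM in P2H2KO, a log2 difference of -0.74 ± 0.15 (adjusted p = 0.0298) against -0.31 ± 0.15 in the wild type libraries. Sirpb1c was at 2.61 to 4.19 and 5.05 to 5.89 CPM, with differences of -0.69 and -0.27. These genes are close copies of one another on chromosome 3, so reads may have been divided between them in a way not given in the sources used here. Iglc1, an immunoglobulin λ constant gene with close copies of its own, was at 19.5, 16.7, 15.5 and 39.3 CPM in P2KO and at 74.4, 84.9, 42.5 and 59.5 CPM in P2H2KO, a log2 difference of -1.52 ± 0.33 against -0.76 ± 0.33 in the wild type libraries.

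Of the 128 called genes, 12 had a difference of differences with an unadjusted p under 0.05, where 1.54% of all autosomal genes had one. The deficient difference was the larger in size in all 12, which the choice of the genes by that difference favours. Dgkq, a diacylglycerol kinase, was called with 8.32, 8.29, 8.66 and 7.53 CPM in P2KO and 6.71, 5.72, 6.03 and 5.28 CPM in P2H2KO, a log2 difference of 0.46 ± 0.10 (adjusted p = 0.0471), and overlapped in the wild type groups with a difference of 0.03 ± 0.10. Its exons overlap those of Idua and Tmem175, so its counts may include reads of these genes, and its call was lost in each of the 8 fits without 1 deficient library. Slc35e2, a nucleotide sugar transporter family member, is not one of the 12 but was named by the same ranking. It was at 26.9 to 29.3 CPM in P2KO and 20.9 to 23.7 CPM in P2H2KO, with log2 differences of 0.33 and 0.21. Its difference of differences was 0.11 ± 0.09 with an unadjusted p of 0.246 in edgeR.

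Only 3 called genes had opposite signs in deficient and wild type libraries, and these are named after their values were seen. Dmp1, a matrix protein of osteocytes, had 22, 28, 29 and 15 counts in P2KO and 1, 0, 3 and 2 counts in P2H2KO, but 10, 12, 3 and 2 counts in P2WT and 19, 14, 3 and 5 counts in P2H2WT. Mest, an imprinted gene, was at 0.483 to 0.845 CPM in P2KO and 0.130 to 0.216 CPM in P2H2KO, with overlapping wild type groups at 0.324 to 0.488 and 0.155 to 0.797 CPM. The antibody gene Igkv1-122 was at 0.110 to 0.435 CPM in P2KO and 1.08 to 4.98 CPM in P2H2KO, with overlapping wild type groups. All 3 are low in these libraries, and none passed the adjustment for the difference of differences.

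Of the 9 tested genes of the HIF pathway edgeR called 0, with 1 higher (Epas1) and 1 lower (Egln3) at an unadjusted p under 0.05, where 9.49% of all autosomal genes were higher and 6.37% lower in P2KO at that p. Egln3 encodes PHD3, an oxygen sensor that HIF itself induces. It stood at 18.4, 15.6, 22.1 and 13.4 CPM in P2KO, at 20.1, 26.5, 25.0 and 23.7 CPM in P2H2KO, at 9.71 to 11.5 CPM in P2WT and at 10.3 to 12.1 CPM in P2H2WT. Both deficient groups thus lay above both wild type groups, and the direct difference of -0.46 ± 0.13 on the log2 scale had an adjusted p of 0.114 in edgeR and of 0.0356 in DESeq2. Bnip3, a mitophagy receptor and HIF target, followed the same order, with 12.1, 11.5, 16.05 and 12.4 CPM in P2KO, 16.4, 19.8, 18.5 and 18.4 CPM in P2H2KO and 5.82 to 8.77 CPM in the wild type libraries. Every P2KO library was below every P2H2KO library, and the log2 difference of -0.49 ± 0.12 had an adjusted p of 0.0733 in edgeR and of 0.00641 in DESeq2.

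Of the 33 HIF targets tested edgeR called 0, with 2 higher and 3 lower in P2KO at an unadjusted p under 0.05, shares near those of all autosomal genes, and their median log2 difference was -0.05 in the deficient and 0.00 in the wild type libraries. Of the 19 glycolysis genes 0 were called and 6 were lower in P2KO at an unadjusted p under 0.05 (Tpi1, Pgam1, Pfkl, Pfkp, Slc2a1 and Aldoa, the last 4 named after their values were seen), where 6.37% of all autosomal genes were so. The triosephosphate isomerase Tpi1 was at 224 to 263 CPM in P2KO, 259 to 303 CPM in P2H2KO and 146 to 172 CPM in the wild type libraries, with a log2 difference of -0.21 ± 0.07 (adjusted p = 0.184). The list's median was -0.28 between the deficient and -0.11 between the wild type groups, and its sum ranged over 4894 to 8030 CPM in P2KO and 6356 to 8219 CPM in P2H2KO with overlap.

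Of 6 tested genes held to respond to HIF2 in particular, edgeR called 0 and all 6 had positive log2 differences, with a median of 0.32 (0.12 in the wild type libraries). Tek, which encodes the angiopoietin receptor TIE2 and is also an endothelial gene, had the smallest p, at 2.06, 2.59, 2.45 and 8.45 CPM in P2KO and 0.606, 0.967, 1.80 and 1.67 CPM in P2H2KO. Its log2 difference of 1.61 ± 0.42 (adjusted p = 0.0916 in edgeR and 0.0126 in DESeq2) was 2.33 ± 0.46 in the wild type libraries.

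The lists of neutrophil function had negative median log2 differences and no call in edgeR. The 16 mature neutrophil markers had a median log2 difference of -0.42 (-0.14 in the wild type libraries), with 5 lower at an unadjusted p under 0.05. Of these, the chemokine Ccl6 was at 172 to 227 CPM in P2KO and 223 to 343 CPM in P2H2KO, with an adjusted p of 0.116 in edgeR and of 0.0274 in DESeq2. All 11 late granule genes had negative log2 differences, with a median of -0.39 (-0.17), and Ngp, a granule protein, was at 7561 to 15920 CPM in P2KO and 10169 to 19180 CPM in P2H2KO. The 28 adhesion and chemotaxis genes had a median of -0.27 (-0.08), with 3 lower at an unadjusted p under 0.05. The 38 actin and cell movement genes had a median of -0.22 (-0.12), with 34 negative and 1 each way at an unadjusted p under 0.05. Rock2, a kinase of actomyosin contraction, was the higher one, at 92.2 to 109 CPM in P2KO and 74.0 to 86.6 CPM in P2H2KO, with an adjusted p of 0.0947 in edgeR and of 0.0190 in DESeq2. P2KO library 6 stood apart in these lists, with a late granule sum of 51489 CPM against 22520 to 30739 CPM in the other P2KO libraries. Without P2KO library 6, 174 autosomal genes were called between the deficient groups in place of 128, and 109 genes were in both sets.

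The lists of dividing cells and other lineages gave no edgeR call beyond those above. All 20 cell cycle genes had positive log2 differences, with a median of 0.10 (-0.04 in the wild type libraries). The B cell list had a median of 0.32 (0.01) with 16 of 16 positive, the erythroid list 0.14 (-0.10), the megakaryocyte and platelet list 0.75 (0.72) and the T and NK cell list -0.35 (0.06). The interferon list had a median of 0.05 (0.07), the immediate early and heat shock list -0.15 (-0.09), the early granule list -0.23 (0.01) and the stem and progenitor list 0.03 (0.00). The monocyte and macrophage list held genes of both directions. Its median was 0.41 (0.23). At an unadjusted p under 0.05, where 9.49% of all autosomal genes were higher and 6.37% lower, 13 of its 19 genes were higher in P2KO, among them the tissue macrophage genes Timd4, Mertk, Marco, Siglec1, Vcam1 and the C1q genes, and 4 were lower, Cx3cr1, Ccr2, Csf1r and Cd68. In the wild type libraries 4 were higher in P2WT and 0 lower at that p in edgeR. Apart from Cx3cr1 these are named after their values were seen. Cx3cr1, the fractalkine receptor, was at 52.3 to 81.1 CPM in P2KO and 81.6 to 151 CPM in P2H2KO, without overlap and with an adjusted p of 0.142 in edgeR and of 0.0390 in DESeq2.

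**Figure D4:**
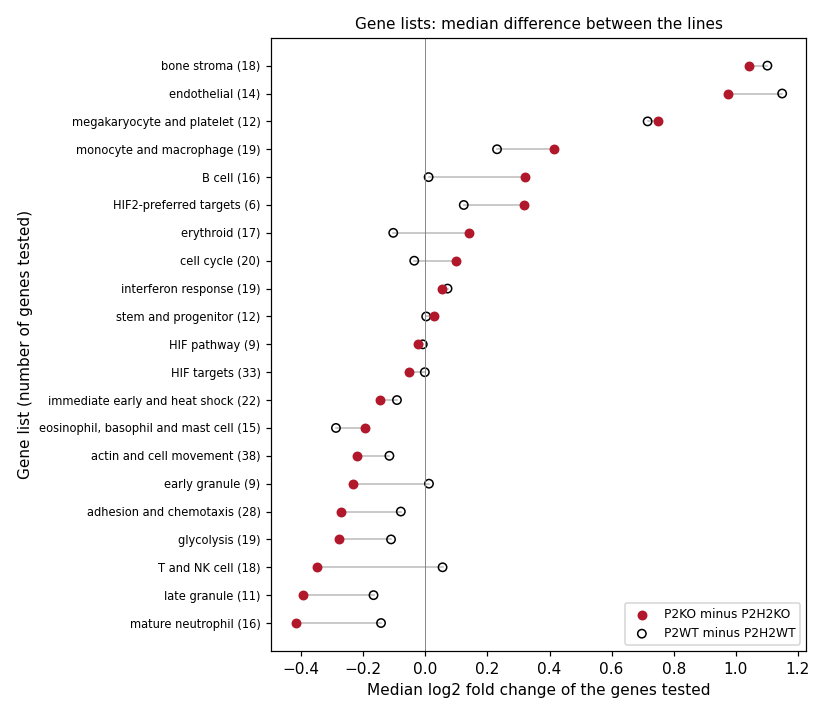
Median log2 difference of the tested genes of 21 gene lists, between P2KO and P2H2KO (filled) and between P2WT and P2H2WT (open), on the horizontal axis. Bone stroma (1.04 and 1.10) and endothelial genes (0.98 and 1.15) are far to the right in both differences, and the mature neutrophil list (-0.42 and -0.14) is at the left.

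A last set of genes was present in 1 line and almost absent from the other, and its members are named after their values were seen. Ncmap, a protein of myelin-forming cells on chromosome 4 (chr4:135369576-135398227), had 0, 2, 1 and 1 counts in P2KO and 78, 76, 123 and 193 counts in P2H2KO. In the wild type libraries it had 0 to 2 counts in P2WT and 86, 1, 271 and 83 counts in P2H2WT, so P2H2WT library 14 looked like the P2 line. The non-coding gene Gm7125 had 0 to 1 counts in P2KO, 180, 205, 263 and 464 in P2H2KO, 0 to 1 in P2WT and 190, 0, 439 and 191 in P2H2WT. The same libraries were high and low for Ncmap and Gm7125, with P2H2KO library 17 and P2H2WT library 16 at the top and P2H2WT library 14 at the bottom. On a log scale over the 8 P2H2 libraries, Gm6594 (r = 0.986), Gm7125 (r = 0.981), Ubxn11 (r = 0.979) and Nudc-ps1 (r = 0.978) followed Ncmap most closely, a description of 8 libraries of 1 line chosen for this pattern.

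Several of these genes are processed pseudogenes, intronless copies of a messenger RNA put back into the genome, and the copied gene could be found for 6 of the 8 called genes that are neither coding nor antigen receptor genes. The copied coding gene lay on chromosome 4 for 4 of them. A stretch from 129 to 137 Mb was set to cover these 4 coding genes and Ncmap, so that they lie in it follows from its choice. In this stretch 132 genes were tested and 2 were called between the deficient groups, Ncmap and Il22ra1, where 0.942% of all autosomal genes were called. Nudc-ps1 on chromosome 8 is 99.1% identical to Nudc (chr4:133532542-133545996), Gm10093 on chromosome 17 is 99.4% identical to Hdac1 (chr4:129516104-129542713), Gm10036 is 99.3% identical to Rpl11 and Gm4800 is 90.9% identical to Rbbp4. Gm13394 on chromosome 2 is 99.9% identical to Gapdh (chr6:125161715-125166467) over 1000 bases. The pairs below show how few bases tell such a copy from its coding gene, with differing bases in capitals, 90 bases each, GRCm38, and each read on the minus strand except Gm10093.
Gm10093, chr17:78491986-78492075: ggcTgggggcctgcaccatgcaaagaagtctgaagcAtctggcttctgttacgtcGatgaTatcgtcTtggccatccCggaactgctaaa
Hdac1, chr4:129522963-129523052: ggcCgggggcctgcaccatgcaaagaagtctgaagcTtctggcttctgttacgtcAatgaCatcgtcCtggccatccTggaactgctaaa
Gm13394, chr2:28934199-28934288: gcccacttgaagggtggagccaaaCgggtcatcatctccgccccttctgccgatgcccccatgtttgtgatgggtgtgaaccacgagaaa
Gapdh, chr6:125162951-125163040: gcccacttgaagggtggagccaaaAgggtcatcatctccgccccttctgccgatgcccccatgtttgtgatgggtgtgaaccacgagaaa
Nudc-ps1, chr8:29286892-29286981: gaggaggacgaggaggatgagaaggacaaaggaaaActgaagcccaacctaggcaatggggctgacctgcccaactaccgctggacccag
Nudc, chr4:133534441-133534530: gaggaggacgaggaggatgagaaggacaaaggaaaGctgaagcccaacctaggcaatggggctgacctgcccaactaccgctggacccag

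The window of the Hdac1 pair holds 6 differing bases, and those of the Gapdh and Nudc pairs hold 1 each. Each window was chosen for the most differing bases among ungapped stretches of coding sequence, and a pair may differ outside it too. A read that covers no base that differs between copy and coding gene can be given to either. How such reads were counted is not given in the sources used here, so the levels of these copies and of their coding genes are uncertain. Gm10093 stood at 0.957, 0.932, 1.07 and 1.15 CPM in P2KO and at 5.80, 6.13, 4.99 and 9.43 CPM in P2H2KO, and its coding gene Hdac1 went the other way, with 96.7, 95.3, 94.0 and 92.5 CPM in P2KO and 84.6, 77.7, 69.8 and 61.9 CPM in P2H2KO. With both added, P2H2KO was at 71.3 to 90.4 CPM and P2KO at 93.6 to 97.7 CPM. The coding genes of the other 4 pairs, Rbbp4, Rpl11, Nudc and Gapdh, overlapped between P2KO and P2H2KO. Hdac1, a histone deacetylase, was not called (log2 difference 0.36 ± 0.11, adjusted p = 0.157). P2H2WT library 14 had 1.24 CPM of Gm10093 and 97.5 CPM of Hdac1, the levels of the P2 line.

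Gm13394 followed a second pattern. It had 1 to 2 counts in P2KO, 0, 1992, 2882 and 4 counts in P2H2KO, 0 to 4 counts in P2WT and 3432, 1323, 1791 and 3716 counts in P2H2WT. P2H2KO libraries 11 and 17 therefore had the low level of the P2 line, and the other 6 P2H2 libraries a level over 1000 counts. St8sia1, a ganglioside synthase on chromosome 6, divided the libraries in the same way, with 2.47, 13.1, 22.3 and 2.44 CPM in P2H2KO, 16.7 to 52.9 CPM in P2H2WT, 1.92 to 3.56 CPM in P2KO and 2.43 to 4.11 CPM in P2WT. It was called in the wild type libraries (log2 -3.19, adjusted p = 0.0468) and not between the deficient groups (log2 -1.84, adjusted p = 0.188). Pianp, also on chromosome 6, had 12, 118, 109 and 6 counts in P2H2KO and was called in both differences. A stretch between 121 and 143 Mb of chromosome 6 had its ends set by called genes after they had been seen. Of its 175 tested genes, 4 were called in the wild type libraries (0.235% of all autosomal genes were) and 1 between the deficient groups (0.942% of all were). Because called genes set its ends, these counts are no measure against the shares of all genes.

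On chromosome 14 another group of neighbours differed in all libraries of each line. Mtmr9, a phosphoinositide phosphatase family member, was at 31.7, 32.7, 37.2 and 34.2 CPM in P2KO and at 41.2, 46.2, 63.7 and 59.7 CPM in P2H2KO, a log2 difference of -0.64 ± 0.13 (adjusted p = 0.0316) and -0.69 ± 0.13 in the wild type libraries (adjusted p = 0.0468). Xkr6 beside it had 0 to 3 counts in P2KO, 7 to 27 in P2H2KO, 0 to 2 in P2WT and 11 to 20 in P2H2WT. Between 63 and 66 Mb, a stretch whose ends were set by these called genes and whose share is therefore no measure against the 0.942% of all autosomal genes, 21 genes were tested, of which Mtmr9, Xkr6, the Wnt receptor gene Fzd3 and Scara3 were called between the deficient groups, the first 3 of them lower in P2KO and called in the wild type libraries too.

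**Figure D5:**
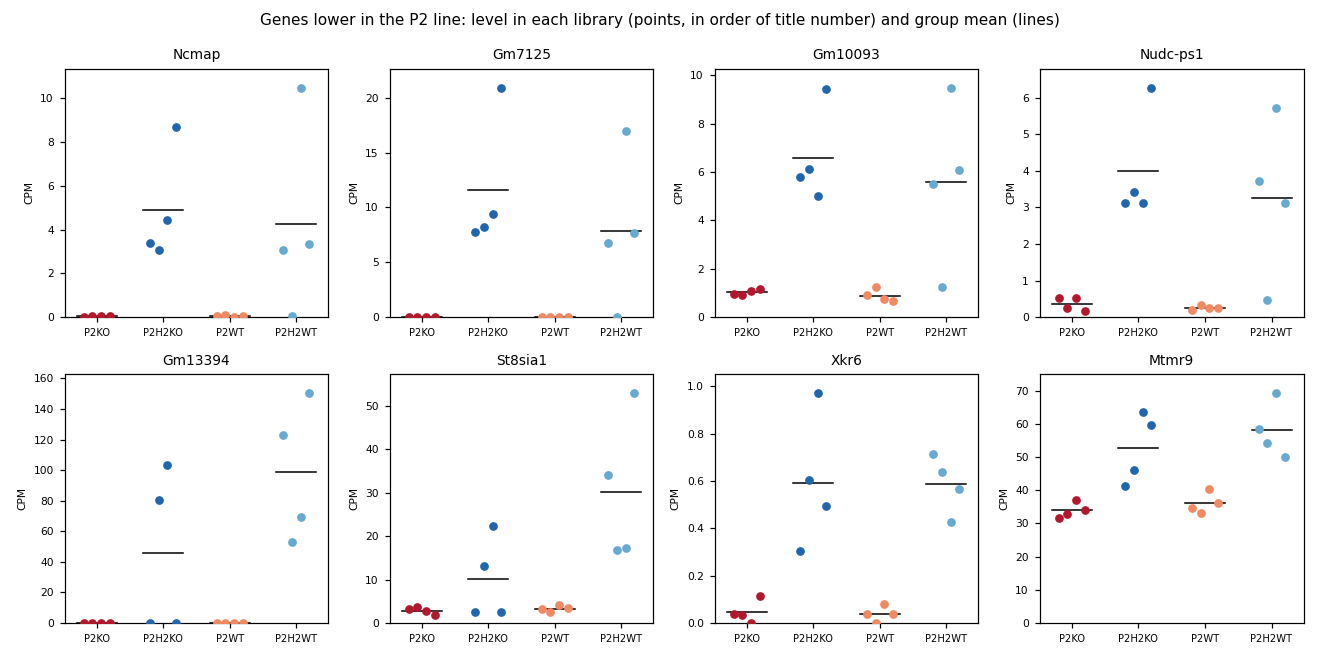
Level in CPM of 8 genes in each library, in order of title number within a group (points), with group means (lines) and vertical axes starting at 0. Ncmap, Gm7125, Gm10093 and Nudc-ps1 are low in P2H2WT library 14, Gm13394 and St8sia1 are low in P2H2KO libraries 11 and 17, and Xkr6 and Mtmr9 are higher in all libraries of the P2H2 line.

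The neighbourhood of Egln1 held 1 called gene, where 0.942% of all autosomal genes were called. Within 5 Mb of Egln1 76 genes were tested, and the zinc finger gene Zcchc14 was called at 1.15 to 3.88 CPM in P2KO and 0.606 to 1.01 CPM in P2H2KO, with log2 differences of 1.54 and 1.33. Zcchc14 overlaps another annotated gene, as do Slc35e2, Mest, Bnip3, St8sia1 and Xkr6 above. The 33 tested genes within 5 Mb of Epas1 had a median log2 difference of -0.06.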

How the data were processed

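RNA sequencing read counts of 16 mouse libraries were used. The authors deposited 2 tables of whole-number counts per Ensembl gene, 1 per line, per the file headers. HTSeq and the build mm10 are named in the submitters' processing notes. The aligner, annotation release and strand setting are not given in the sources used here. The tables were joined on identifier. Symbols and positions came from GENCODE M21 on GRCm38 (49326 of 49585 identifiers, and the other 259 held 0.00714% of counts). The model was fitted with edgeR 4.0.16 (filterByExpr, TMM, robust quasi-likelihood test) on all 16 libraries with 4 group means, two-sided, with Benjamini-Hochberg adjustment over 14080 genes and a threshold of 0.05. Standard errors and 95% intervals came from the same fit. Alternatives included DESeq2 1.42.0. Pseudogenes were aligned to coding transcripts with blastn 2.17.0. The procedure was tested on simulated data. The comparison, the gene lists and the naming rule were chosen with earlier results of these data known. Named were the targeted genes; up to 12 called genes per direction without overlap and with a mean of 5 CPM or more in 1 group, by size, predicted genes and receptor segments left out; up to 6 per direction by difference of differences; up to 4 called or else 2 genes per list; and called genes within 5 Mb of Epas1 or Egln1. Some genes that the rule names are not reported here.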

Additional observations from a re-analysis of the deposited data

Results flagged for a closer look

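In each group of 4 libraries, the highest or lowest value was set against the gap that chance leaves in about 1 of 20 groups (Dixon's 95% critical value, 0.829). Of 244 groups of named genes examined, 17 stood out. In the wild type library P2WT 3, Col1a1 was at 585 CPM where the other 3 were at 141 to 180, Col1a2 at 448 (114 to 160), Col11a1 at 15.5 (3.50 to 4.03) and Sparc at 122 (49.3 to 60.3). In P2KO 9, Hspg2 was at 30.4 CPM (others 9.20 to 12.1), Ptprb at 10.9 (3.05 to 4.28), Tek at 8.45 (2.06 to 2.59), Vwf at 63.2 (25.3 to 28.3) and Iglc1 at 39.3 (15.5 to 19.5). Among the P2H2KO libraries Sparc was low in library 11 at 10.1 CPM (22.6 to 23.2), Rock2 low in library 17 at 74.0 (84.9 to 86.6) and Prf1 high in library 12 at 4.75 (2.26 to 2.64). In P2H2WT 14, P4ha2 was at 0.558 CPM (0.193 to 0.215), and in P2H2WT 18, Sirpb1a was at 12.3 (8.27 to 8.81) and Atf3 at 7.39 (4.58 to 4.72). In P2WT 10, Ngp was at 14140 CPM (9104 to 9420) and Atf3 at 5.59 (3.49 to 3.71). The called difference of Sparc between P2KO and P2H2KO remained called without P2H2KO 11, and those of Hspg2 and Ptprb had the same direction without P2KO 9.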

How the results depend on the processing

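Counts of called genes moved more than directions. Between P2KO and P2H2KO 128 genes were called (106 higher, 22 lower), with RLE factors 125, with upper-quartile factors 123 and without a filter 118. The count was 55 (47 and 8) with at least 10 counts in every library, 411 (298 and 113) with DESeq2, 208 (185 higher) with the title suffix as a covariate, 38 (24 and 14) on the 8 libraries alone, 4 (2 and 2) with erythroid and late granule scores and 0 (0 and 0) with endothelial and stroma scores. With the last, 124 of the 128 genes kept their sign. On the 8 libraries alone, 123 were tested with the same sign and 31 were called again.

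Leaving out 1 of the 8 deficient libraries gave 38 (without P2H2KO 15) to 174 genes (without P2KO 6), of which 25 to 132 were higher and 9 to 42 lower. The counts were 67 without P2KO 5, 44 without P2KO 9, 39, 49 and 63 without P2H2KO 11, 12 and 17. All 128 kept their sign in each, and 24 were called in all 8, among them Gdpd3, Col1a2, Sparc, Col5a2, Col4a1, Col4a2 and Fcer1a. The call was kept in 6 of 8 fits for Ptprb, 5 for Col1a1 and Hspg2, 4 for Slamf8 and Plvap, 3 for Col11a1, Ctsk, Sox18, Adgrg7 and Mtmr9, 2 for Mmp13, Sirpb1a, Cdh5 and Emcn, 1 for Iglc1, Sirpb1c and Slc35e2 and 0 for Dgkq.

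Between P2WT and P2H2WT 32 genes were called (17 higher, 15 lower). The count was 9 (5 and 4) without a filter, 0 (0 and 0) with at least 10 counts, 283 (217 and 66) with DESeq2, 122 (103 higher) with the suffix, 161 (143 higher) on the 8 libraries alone, 43 (26 higher) with erythroid and late granule scores, 0 (0 and 0) with endothelial and stroma scores, and 0 to 29 without 1 library, with 0 to 17 higher and 0 to 14 lower. It was 0 without P2WT 3, 4 or 7 or P2H2WT 13, 1 without P2WT 10 or P2H2WT 16 and 15 without P2H2WT 14. Genes called in both differences numbered 26, and 7, 0, 160, 75, 9, 3 and 0 in that order of settings, with 0 to 24 without 1 library. The difference of differences had 0 calls in every setting in which it was computed, with 140 to 589 genes at an unadjusted p under 0.05.

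With endothelial and stroma scores, the log2 difference changed sign for Epas1 (-0.43), Tek (-0.18), Cd22 (-0.044) and Kit (0.040), none of them called. The causes were not tested. No paired analysis was possible because no replicate number is shared between groups. Genes with few counts, such as Dmp1, have wide intervals.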
